A study of Papio anubis with 767 samples.

Results

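The duodenum and the ileum are the first and last segments of the small intestine, and their transcriptomes were compared in a 24 h atlas of the olive baboon, Papio anubis, which the labels' protocol also calls Papio anubis hamadryas. The atlas holds 767 RNA sequencing libraries from 64 tissues, of which 24 were compared here: all 12 labelled duodenum and all 12 labelled ileum. They were chosen by these tissue labels. The 12 animals were males of 5 to 6 years kept with lights on for 12 h a day and given food at fixed hours, with no genotype or treatment named in the labels. From ZT0 to ZT22, 1 animal was taken every 2 h after a lethal dose of pentobarbital, and its vessels were flushed with cold buffer. The duodenum time labels may be 2 h late, so the segments were compared unpaired. Each animal gave 1 library per segment and each time rests on 1 animal, so time of day and animal cannot be told apart. The libraries were made from poly(A) RNA of tissue pieces that were not sorted into cell types, so fewer cells of a type and less RNA per cell cannot be told apart in any value below.

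As background, the duodenum receives acid from the stomach and bile and enzymes from the pancreas and liver. Its villi take up calcium and iron, its endocrine cells release hormones that act on gallbladder, pancreas and insulin, and the Brunner glands in its wall secrete bicarbonate and mucin. The ileum takes up bile acids and vitamin B12, its L cells release glucagon-like peptides, and follicles of immune cells are frequent in its wall. HOX genes, the transcription factors that encode position along the body axis, are switched on in order from the front to the rear of the gut.

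Values are FPKM, fragments scaled by a factor for each library and to transcript length, so they can also be set side by side between genes. Recovered from the values, the reads on genes numbered 5847971 to 13658379 per duodenum library and 2366088 to 14507907 per ileum library. For a given gene, the value of 1 read times the library's reads varied 2.09-fold over the 24 libraries. The library factor was thus not reads on genes alone. Summed values ran from 469759 FPKM at ileum ZT18 to 1844360 FPKM at duodenum ZT8. Epithelial markers were high in both segments, the sum of 8 genes such as VIL1 and EPCAM reaching 769 to 4158 FPKM in duodenum and 1756 to 6433 FPKM in ileum, while 7 of 8 pancreatic enzyme genes stayed under the mean of 1 FPKM needed for a test. A few libraries stood apart. The ileum libraries of ZT0 and ZT4 carried 9 brain neuron markers at a sum of 1674 and 1471 FPKM, against 1.11 to 15.7 FPKM in the other 10 ileum libraries. The duodenum library of ZT20 carried 3928 FPKM of GKN1, a secreted protein of the stomach surface, against 0 to 49.4 FPKM in the other 11. The comparison was therefore repeated without the ileum libraries of ZT0 and ZT4, and, as a choice made after seeing the data, also without the duodenum library of ZT20.

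S100G and GIP, the genes that mark duodenum, held to the labels in every library. S100G encodes calbindin-D9k, the calcium shuttle of the enterocyte. It ran from 301 to 42587 FPKM in duodenum (median 12544) and from 0 to 10.4 FPKM in ileum (median 0.980). GIP encodes the incretin of duodenal K cells, and ran from 56.7 to 952 FPKM in duodenum (median 305) and from 0 to 17.7 FPKM in ileum (median 5.97). The groups did not overlap for either gene, and even the weakest duodenum library exceeded the strongest ileum library about 28.8-fold for S100G. S100G varied widely within the duodenum, with its lowest value at ZT10 and its highest at ZT12.

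**Figure D1:**
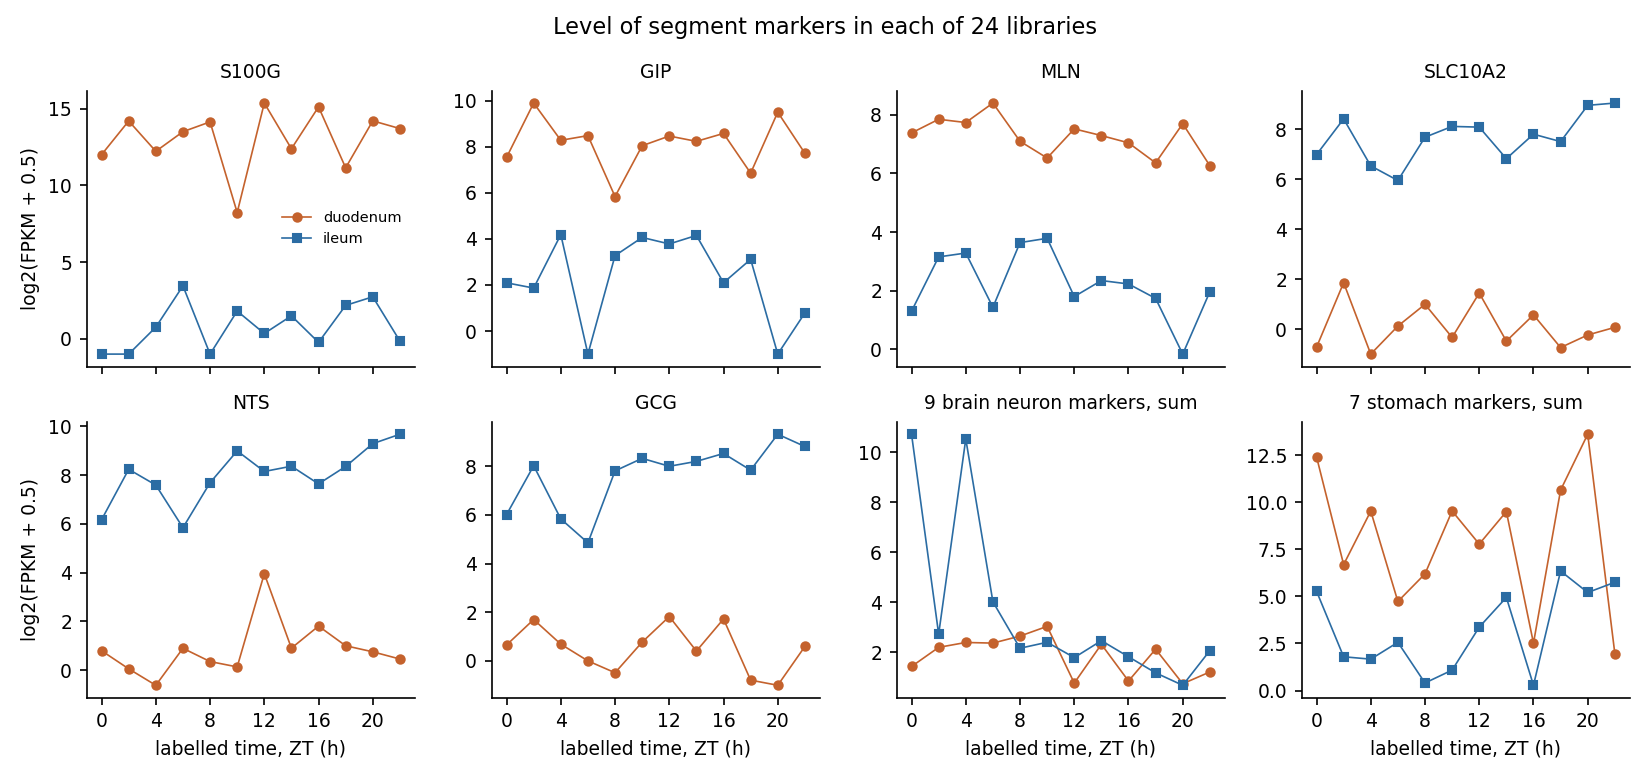
Levels, as log2(FPKM + 0.5), against the labelled time (ZT, h) in each of the 12 duodenum (orange) and 12 ileum (blue) libraries, 1 animal a point, for 6 segment markers and for the summed brain neuron and stomach markers. The segments do not overlap for the 6 genes, brain markers stand out in ileum at ZT0 and ZT4, and stomach markers run from 3.41 FPKM at ZT22 to 12492 FPKM at ZT20 in duodenum.

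Of 12102 genes with a mean of at least 1 FPKM over the 24 libraries, 984 (8.13%) were higher in duodenum and 612 (5.06%) were higher in ileum at an adjusted p under 0.05. The test was limma's moderated test on log2(FPKM + 0.5), unpaired, and a log2 difference below is duodenum minus ileum on that scale, with its standard error (SE). With a difference of at least 2-fold as a further condition, 489 genes (4.04%) were higher in duodenum and 345 (2.85%) in ileum. The groups did not overlap for 79 genes with duodenum above (0.653%) and 65 with ileum above (0.537%). Leaving out the ileum libraries of ZT0 and ZT4, calls of any size numbered 1196 (9.88%) and 907 (7.49%), the 2-fold counts were 563 (4.65%) and 419 (3.46%), and 437 and 317 of the genes were shared with the first fit. The split depended on scaling: 58.6% of the 2-fold calls were higher in duodenum as deposited, 50.3% after median-of-ratios scaling, 49.8% after quantile scaling and 38.5% with every library set to the same sum. Centred on the epithelial markers, 2 of which (EPCAM and KRT20) were themselves higher in ileum, the share was 91.9%. The median gene lay at 0.12 as deposited and at 0.02, 0.01, -0.12 and 0.62 under those 4 scalings. Of the called genes, 107 were followed under the alternatives in which they were tested. None changed direction, and 17 lost their call under some. The 24 leading genes among them were chosen by also passing without the ileum libraries of ZT0 and ZT4, which is 1 of these alternatives.

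The second principal component of the 24 libraries, with 21.9% of the variance, separated the segments, at -57.9 to -15.2 in duodenum and 7.43 to 108 in ileum. The first, with 35.7%, did not. It ran from 76.0 (ZT2) to -47.4 (ZT18) in duodenum and from 109 (ZT0) to -151 (ZT20) in ileum. On the second component the highest values, 101 and 108, came from the ileum libraries of ZT0 and ZT4, which held brain transcripts.

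**Figure D2:**
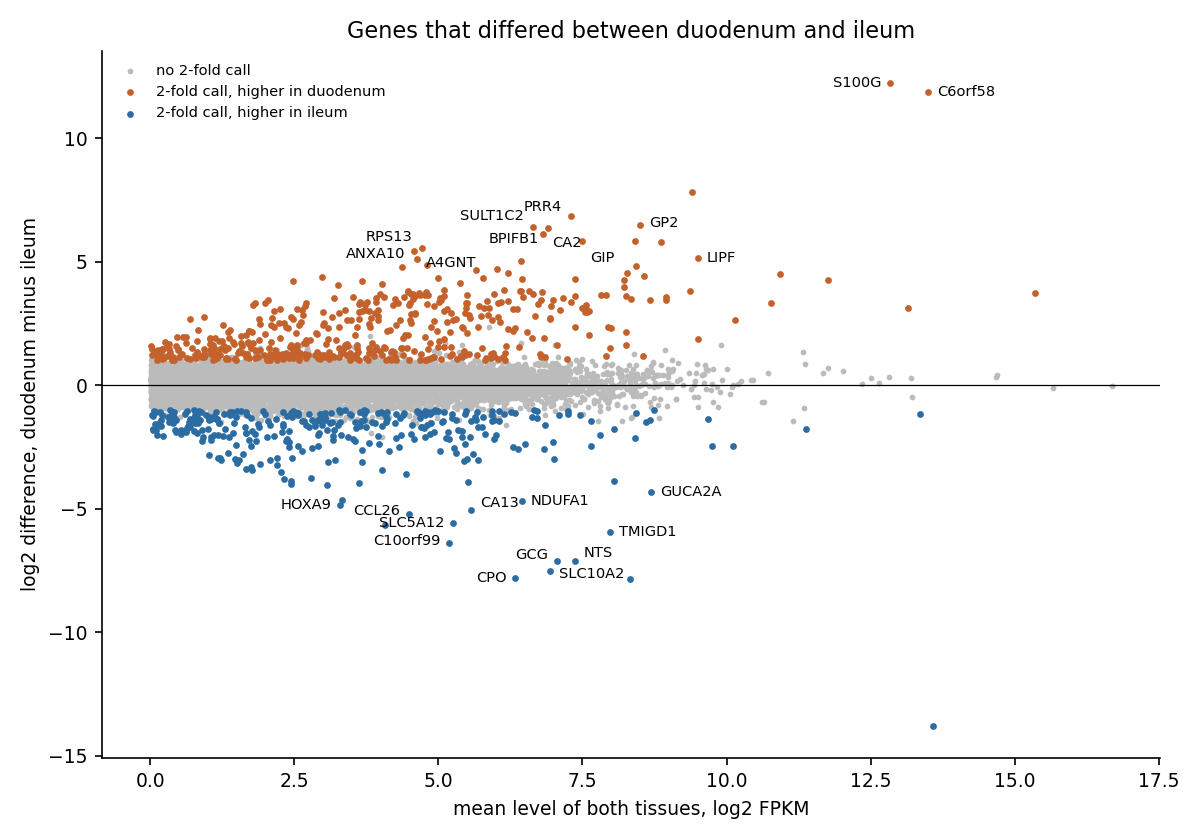
Log2 difference (duodenum minus ileum) of 12102 genes against their mean level in both segments (log2 FPKM), with 2-fold calls in color and the 24 named leading genes labelled. S100G and C6orf58 stand apart at the top. The lowest point, in ileum, is a gene model with no symbol in the table.

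Among rows with a symbol of their own, the 12 genes furthest toward duodenum fell into a few kinds. S100G led, at a log2 difference of 12.24, followed by C6orf58 at 11.87. C6orf58, which encodes a secreted protein, spanned 29.6 to 98352 FPKM over the duodenum libraries with a median of 4820.1 FPKM, and reached 2.60 FPKM at most in ileum. PRR4, a proline-rich secreted protein, ran from 0.360 to 1569 FPKM (median 102) in duodenum and had no read in any of the 12 ileum libraries. Secreted or glandular products also included GP2 (log2 difference 6.49, SE 0.82, adjusted p = 2.34e-06), BPIFB1 (log2 difference 6.38, SE 0.97, adjusted p = 2.81e-05), A4GNT (log2 difference 5.11, SE 0.65, adjusted p = 2.50e-06), which adds the terminal sugar of gland mucin, and LIPF, gastric lipase (log2 difference 5.13, SE 1.28, adjusted p = 0.00690).

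SULT1C2, a sulfotransferase, was steadier, from 49.3 to 379 FPKM in duodenum (median 216) and from 0.101 to 4.39 FPKM in ileum (median 1.69). The segments did not overlap for it, and its log2 difference was 6.40 ± 0.40 (SE, adjusted p = 4.78e-12). CA2, the cytosolic carbonic anhydrase that supplies bicarbonate, ran from 38.3 to 517 FPKM in duodenum (median 189.7) and from 0 to 31.4 FPKM in ileum (median 1.07). Its 2 highest ileum values, 20.3 and 31.4 FPKM, came from the libraries with brain transcripts, and the other 10 reached 4.10 FPKM at most. CA2 medians in antrum, cecum and ascending colon were 1059, 566 and 867 FPKM, all above duodenum, so the ileum was the low segment. ANXA10, an annexin of gastric-type epithelium, and RPS13, a ribosomal protein described further on, completed the 12.

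Among rows with a symbol of their own, the 12 furthest toward ileum were led by CPO, carboxypeptidase O of the enterocyte brush border. CPO ran from 0 to 0.281 FPKM in duodenum (median 0.0259) and from 48.8 to 473 FPKM in ileum (median 113), without overlap (log2 difference -7.79, SE 0.28, adjusted p = 8.63e-17). SLC10A2, NTS and GCG came next and are described with their groups below. C10orf99, a chemoattractant peptide of the gut surface, had 1 read in all 12 duodenum libraries together and 1.58 to 249.7 FPKM (median 50.3) in ileum. TMIGD1, an adhesion molecule of enterocytes, reached 143 to 919.7 FPKM in ileum against 0.314 to 30.2 FPKM in duodenum (log2 difference -5.94, SE 0.57, adjusted p = 2.76e-08).

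SLC5A12, a sodium-coupled lactate transporter, differed by -5.58, the eosinophil attractant CCL26 by -5.21 and the carbonic anhydrase CA13 by -5.07 (adjusted p = 1.04e-09, 2.67e-10 and 4.78e-12). The ileum libraries lay above all duodenum libraries for each of these 3. HOXA9, GUCA2A and NDUFA1, taken up further on, completed the 12.

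**Figure D3:**
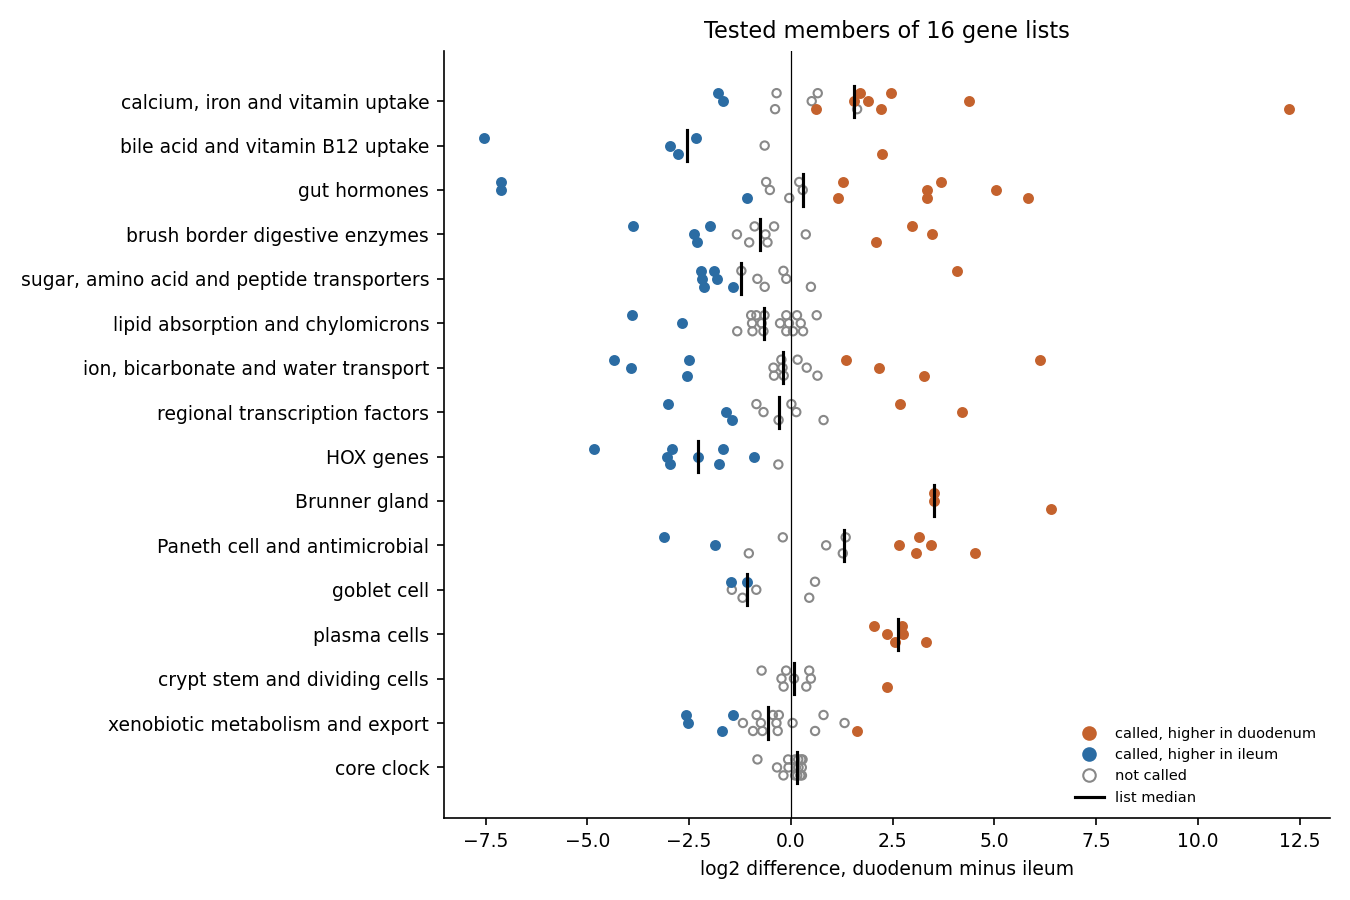
Log2 difference (duodenum minus ileum) of each tested member of 16 gene lists, filled where called (orange higher in duodenum, blue higher in ileum) and open where not, with the list's median as a bar. HOX genes lie to the left, plasma cell and Brunner gland genes to the right, and core clock genes around 0.

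Calcium, iron and vitamin uptake genes had 15 of 17 members tested (3 with a mean under 1 FPKM in 1 segment), of which 8 were higher in duodenum and 2 in ileum, with a median log2 difference of 1.56. Here and in the lists below, members that were not tested are under a mean of 1 FPKM or have no row of their own symbol in the table, and those with a mean under 1 FPKM in 1 segment passed the filter through the segment where they are higher, so the counts and medians are a description. The same median over all 12102 tested genes was 0.12, and 8.13% of them were higher in duodenum and 5.06% in ileum. TRPV6, the calcium channel of the brush border, ran from 0.780 to 43.8 FPKM (median 11.5) in duodenum, with 5164 reads in all, and had no read in ileum (adjusted p = 5.15e-08). The vitamin D receptor gene VDR and the calcium pump ATP2B1 were not called. SLC40A1, ferroportin, through which iron leaves the enterocyte, ran from 67.6 to 219 FPKM in duodenum (median 129) and from 6.86 to 49.5 FPKM in ileum (median 29.0), without overlap (log2 difference 2.21, SE 0.27, adjusted p = 1.61e-06). SLC11A2, the importer of ferrous iron, was higher in duodenum by 1.56 ± 0.26 (SE, adjusted p = 9.34e-05).

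CYBRD1, the ferric reductase that works beside SLC11A2, went the other way. It ran from 53.9 to 160.2 FPKM in duodenum (median 89.0) and from 75.9 to 1069 FPKM in ileum (median 375), so the groups overlapped, and its log2 difference was -1.79 ± 0.34 (SE, adjusted p = 5.40e-04). Among genes for vitamins and metals, BCO1, which cleaves beta-carotene to retinal, was higher in duodenum by 2.46, the manganese exporter SLC30A10 by 1.90 and the folate transporter SLC46A1 by 1.69 (adjusted p = 0.00195, 1.81e-05 and 8.31e-04). SLC5A6, the biotin and pantothenate transporter, was higher by 0.60 (adjusted p = 0.0133) and lost its call when every library was set to the same sum (adjusted p = 0.381). SLC23A1, a vitamin C transporter, was higher in ileum (log2 difference -1.66, SE 0.30, adjusted p = 3.39e-04).

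Bile acid and vitamin B12 uptake genes had 6 of 10 members tested (3 with a mean under 1 FPKM in 1 segment), of which 1 was higher in duodenum and 4 in ileum, with a median log2 difference of -2.55. SLC10A2, the bile acid importer of the ileal brush border, ran from 0 to 3.13 FPKM in duodenum (median 0.450) and from 61.6 to 533 FPKM in ileum (median 215). The lowest ileum value was about 19.7 times the highest duodenum value, and the log2 difference was -7.54 ± 0.36 (SE, adjusted p = 3.62e-14). NR1H4, the bile acid receptor FXR, was also higher in ileum, without overlap (log2 difference -2.78, SE 0.30, adjusted p = 1.98e-07). SLC51B, a subunit of the basolateral bile acid exporter, was higher in ileum with overlap (log2 difference -2.98, SE 0.46, adjusted p = 4.04e-05).

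NR0B2, a repressor that FXR is known to induce, was higher in duodenum. It ran from 0.706 to 12.7 FPKM in duodenum (median 2.08) and from 0 to 0.446 FPKM in ileum (median 0.113), without overlap (log2 difference 2.23, SE 0.30, adjusted p = 6.69e-06). FGF19, the hormone that FXR induces in ileum, was listed at 0 in all 24 libraries. TCN2, transcobalamin, which carries vitamin B12 in blood, was higher in ileum (log2 difference -2.32, SE 0.45, adjusted p = 6.00e-04).

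Gut hormone and endocrine cell genes had 15 of 18 members tested (3 with a mean under 1 FPKM in 1 segment), of which 7 were higher in duodenum and 3 in ileum, with a median log2 difference of 0.29. The counts were 8 and 2 without the ileum libraries of ZT0 and ZT4. On the duodenum side were hormones of the upper gut. MLN, motilin, ran from 76.1 to 336 FPKM in duodenum (median 161) and from 0.396 to 13.3 FPKM in ileum (median 3.80), without overlap (log2 difference 5.05, SE 0.36, adjusted p = 7.01e-11). GHRL, ghrelin, reached 0.887 to 16.3 FPKM in duodenum and 0.604 FPKM at most in ileum (log2 difference 3.35, SE 0.35, adjusted p = 9.12e-08). CCK, cholecystokinin, ran from 5.47 to 79.6 FPKM in duodenum, but the ileum libraries of ZT0 and ZT4 held 136 and 54.4 FPKM, while the other 10 reached 1.58 FPKM at most. Its log2 difference was 3.68 ± 0.78 (SE, adjusted p = 0.00167), and 4.79 without both libraries (adjusted p = 5.20e-09).

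GAST, gastrin, spread from 0.121 to 197 FPKM in duodenum and differed by 3.35 (adjusted p = 0.00198). Somatostatin (SST) and the granule protein CHGA were also higher in duodenum, at 1.15 and 1.27 (adjusted p = 4.69e-04 and 6.00e-04). CHGA lost its call with every library set to the same sum (adjusted p = 0.0664). Ileum had the hormones of the lower gut. GCG, the precursor of glucagon-like peptides, ran from 0 to 3.04 FPKM in duodenum (median 1.04) and from 28.4 to 639 FPKM in ileum (median 258). NTS, neurotensin, ran from 0.151 to 15.1 FPKM in duodenum (median 1.21) and from 57.0 to 820.3 FPKM in ileum (median 293). Neither overlapped, and the log2 differences were -7.12 ± 0.45 (SE, adjusted p = 5.87e-12) and -7.13 ± 0.44 (SE, adjusted p = 4.78e-12).

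CHGB, a granule protein also found in brain, was called higher in ileum (log2 difference -1.08, SE 0.35, adjusted p = 0.0429). That call ended without the ileum libraries of ZT0 and ZT4, at -0.65 (adjusted p = 0.0743), and when any 1 of 14 libraries was left out (adjusted p up to 0.0746). PYY, another L cell hormone, was low in both segments and was not called.

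Brush border digestive enzyme genes had 14 of 17 members tested (1 with a mean under 1 FPKM in 1 segment), of which 3 were higher in duodenum and 4 in ileum, with a median log2 difference of -0.76. LCT, lactase, ran from 0.635 to 19.4 FPKM in duodenum (median 6.66) and from 0 to 0.298 FPKM in ileum (median 0.0464), without overlap (log2 difference 3.46, SE 0.37, adjusted p = 1.52e-07). TMPRSS15, enteropeptidase, which activates trypsin from the pancreas, ran from 16.9 to 858 FPKM in duodenum (median 288) and from 9.46 to 69.0 FPKM in ileum (median 25.7) (log2 difference 2.97, SE 0.55, adjusted p = 3.82e-04). The peptidase MME was higher in duodenum as well (log2 difference 2.09, SE 0.59, adjusted p = 0.0177), but not with every library set to the same sum (adjusted p = 0.0673).

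On the ileum side were 4 peptidases. ENPEP, which removes acidic residues from peptide ends, ran from 7.21 to 173 FPKM in duodenum (median 19.3) and from 149 to 1227 FPKM in ileum (median 459.8) (log2 difference -3.87, SE 0.47, adjusted p = 1.31e-06), with 1 duodenum library reaching into the ileum range. MEP1A, NAALADL1 and XPNPEP2 differed by -2.30, -2.37 and -1.99 (adjusted p = 0.00110, 0.00305 and 3.48e-04). The sucrase-isomaltase gene SI was not called (log2 difference -0.89, SE 0.41, adjusted p = 0.169).

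Sugar, amino acid and peptide transporter genes had 13 of 15 members tested (2 with a mean under 1 FPKM in 1 segment), of which 1 was higher in duodenum and 6 in ileum, with a median log2 difference of -1.22. The single one toward duodenum was SLC28A2, a purine nucleoside carrier, which ran from 4.02 to 108 FPKM in duodenum (median 8.67) and from 0 to 0.714 FPKM in ileum (median 0.143), without overlap (log2 difference 4.08, SE 0.38, adjusted p = 1.94e-08). Of the 6 toward ileum, 5 were amino acid carriers or their subunits, while SLC7A7 and SLC3A2, which also form such carriers, were not called (-1.22 and 0.49, adjusted p = 0.0507 and 0.402). SLC7A9 and SLC3A1, the light and heavy chains of the cystine and dibasic amino acid exchanger, differed by -2.20 and -2.19 (adjusted p = 0.00140 and 0.00233). SLC6A19, the main carrier of neutral amino acids, differed by -2.13 and the proline carrier SLC6A20 by -1.89 (adjusted p = 0.00739 and 6.81e-04).

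SLC2A5, the fructose transporter, was higher in ileum too (log2 difference -1.43, SE 0.41, adjusted p = 0.0207). The glutamate carrier SLC1A1 was called (log2 difference -1.81, SE 0.57, adjusted p = 0.0335) but not without the ileum libraries of ZT0 and ZT4 (adjusted p = 0.0686), nor when any 1 of 9 libraries was left out (adjusted p up to 0.0637). The glucose carrier SLC5A1 ran from 37.7 to 302 FPKM in duodenum (median 124) and from 41.5 to 315 FPKM in ileum (median 124), with a log2 difference of -0.11 ± 0.34 (SE, adjusted p = 0.869). The peptide carrier SLC15A1 was not called either (log2 difference -0.18, SE 0.46, adjusted p = 0.841). For both genes the difference was smaller than its standard error.

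Lipid absorption genes had 19 of 24 members tested (1 with a mean under 1 FPKM in 1 segment), of which none were higher in duodenum and 2 in ileum, with a median log2 difference of -0.65. The counts were 1 and 5 without the ileum libraries of ZT0 and ZT4. ABCG5, a subunit of the pump that returns plant sterols to the lumen, was higher in ileum (log2 difference -2.68, SE 0.53, adjusted p = 7.52e-04). PLB1, a phospholipase of the brush border, ran from 0 to 0.184 FPKM in duodenum (median 0.0812) and from 2.59 to 30.1 FPKM in ileum (median 9.07), without overlap (log2 difference -3.89, SE 0.32, adjusted p = 1.48e-09). The fatty acid binding proteins FABP1 and FABP2 were abundant in both, with medians of 1031 and 1557 FPKM in duodenum and 1399 and 2808 FPKM in ileum, and neither was called (adjusted p = 0.395 and 0.131). FABP2 and MTTP, which loads lipid onto chylomicrons, were called higher in ileum without the libraries of ZT0 and ZT4 (adjusted p = 0.0376 and 0.0399). APOA1, an apolipoprotein of chylomicrons, spanned 9.55 to 1550.4 FPKM in duodenum and 18.4 to 2715 FPKM in ileum (log2 difference -1.32, SE 0.84, adjusted p = 0.345).

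Ion, bicarbonate and water transport genes had 16 of 22 members tested, of which 4 were higher in duodenum and 4 in ileum, with a median log2 difference of -0.19. Genes for bicarbonate and chloride secretion were among those higher in duodenum, while 8 of the 16 tested members were not called in either direction. CFTR, the chloride and bicarbonate channel, ran from 15.7 to 254 FPKM in duodenum (median 30.4) and from 2.19 to 24.7 FPKM in ileum (median 10.1), with overlap (log2 difference 2.16, SE 0.44, adjusted p = 0.00103). Besides CA2, the membrane carbonic anhydrase CA9 ran from 13.9 to 149 FPKM in duodenum (median 39.4) and from 0.668 to 10.1 FPKM in ileum (median 4.85), without overlap (log2 difference 3.27, SE 0.38, adjusted p = 6.13e-07). SLC4A4, the basolateral bicarbonate importer, differed by 1.36 (adjusted p = 0.0136), which became 0.145 with every library set to the same sum.

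Guanylin peptides, which act on the receptor GUCY2C to drive salt and water secretion, lay toward ileum. GUCA2A ran from 9.83 to 111 FPKM in duodenum (median 27.7) and from 111 to 2772 FPKM in ileum (median 543), with the top duodenum value just above the lowest ileum value at about 111 FPKM each (log2 difference -4.33, SE 0.45, adjusted p = 8.54e-08). GUCA2B differed by -3.93, the carbonic anhydrase CA4 by -2.56 and the water and glycerol channel AQP3 by -2.50 (adjusted p = 5.40e-04, 1.81e-04 and 9.65e-06). GUCY2C itself was not called.

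Regional transcription factor genes had 11 of 24 members tested (3 with a mean under 1 FPKM in 1 segment), of which 2 were higher in duodenum and 3 in ileum, with a median log2 difference of -0.30. GATA4, a determinant of upper small intestine, ran from 4.93 to 20.6 FPKM in duodenum (median 8.77) and from 0 to 0.190 FPKM in ileum (median 0.0501), without overlap (log2 difference 4.20, SE 0.23, adjusted p = 4.52e-13). ONECUT2 ran from 1.39 to 5.24 FPKM in duodenum (median 3.06) and from 0 to 0.170 FPKM in ileum (median 0.0420), without overlap (log2 difference 2.67, SE 0.18, adjusted p = 3.06e-11). PDX1, a factor of duodenum and pancreas, was too low to be tested, at 0.237 to 3.01 FPKM in duodenum, and was listed at 0 in all ileum libraries. HNF4G and KLF5 were higher in ileum, at -1.60 and -1.44 (adjusted p = 0.00225 and 0.00246), KLF5 losing its call when centred on epithelial markers (adjusted p = 0.0739). The intestinal factors CDX1 and CDX2 were not called.

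HOX genes had 9 of 39 members tested (6 with a mean under 1 FPKM in 1 segment), of which none were higher in duodenum and 8 in ileum, with a median log2 difference of -2.29. HOXA9 ran from 0 to 0.257 FPKM in duodenum (median 0.0638) and from 2.93 to 57.0 FPKM in ileum (median 16.8), without overlap (log2 difference -4.83, SE 0.28, adjusted p = 1.59e-12). HOXC8, HOXC6 and HOXA7 did not overlap either, at -3.05, -2.93 and -1.76 (adjusted p = 9.91e-08, 5.41e-08 and 4.58e-07). HOXB9 had no read in duodenum and up to 9.84 FPKM in ileum (adjusted p = 7.68e-07). HOXB7 and HOXA5 were higher in ileum with overlap and differed by -2.29 and -1.66 (adjusted p = 1.27e-05 and 2.35e-04), HOXA5 with 0.0527 when centred on epithelial markers.

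The neighbouring gut segments, with 12 libraries each, put these levels in place. GATA4 had a median of 21.0 FPKM in the antrum of the stomach, 8.77 in duodenum, and 0.0501, 0.0419 and 0.0662 FPKM in ileum, cecum and ascending colon. ONECUT2 and LCT were high in duodenum alone among these 5 tissues, every other library being at or under 0.17 FPKM for ONECUT2 and 0.298 FPKM for LCT. HOXA9 was shared by ileum, cecum and ascending colon, with medians of 16.8, 12.3 and 15.0 FPKM.

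HOXC8 reached 0.514 FPKM at most in cecum and 0.168 in ascending colon, so its level was highest in ileum. CPO did not exceed 0.281 FPKM in any of the other 4 segments. SLC10A2 was lower past the ileum, with medians of 4.40 FPKM in cecum and 9.19 FPKM in ascending colon. GUCA2A and OTOP2, a proton channel, continued into the large intestine, GUCA2A at medians of 902 and 1732 FPKM. OTOP2 had no read in duodenum and a median of 3.19 FPKM in ileum (adjusted p = 1.07e-07). These levels across 5 tissues are a description, without a test.

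**Figure D4:**
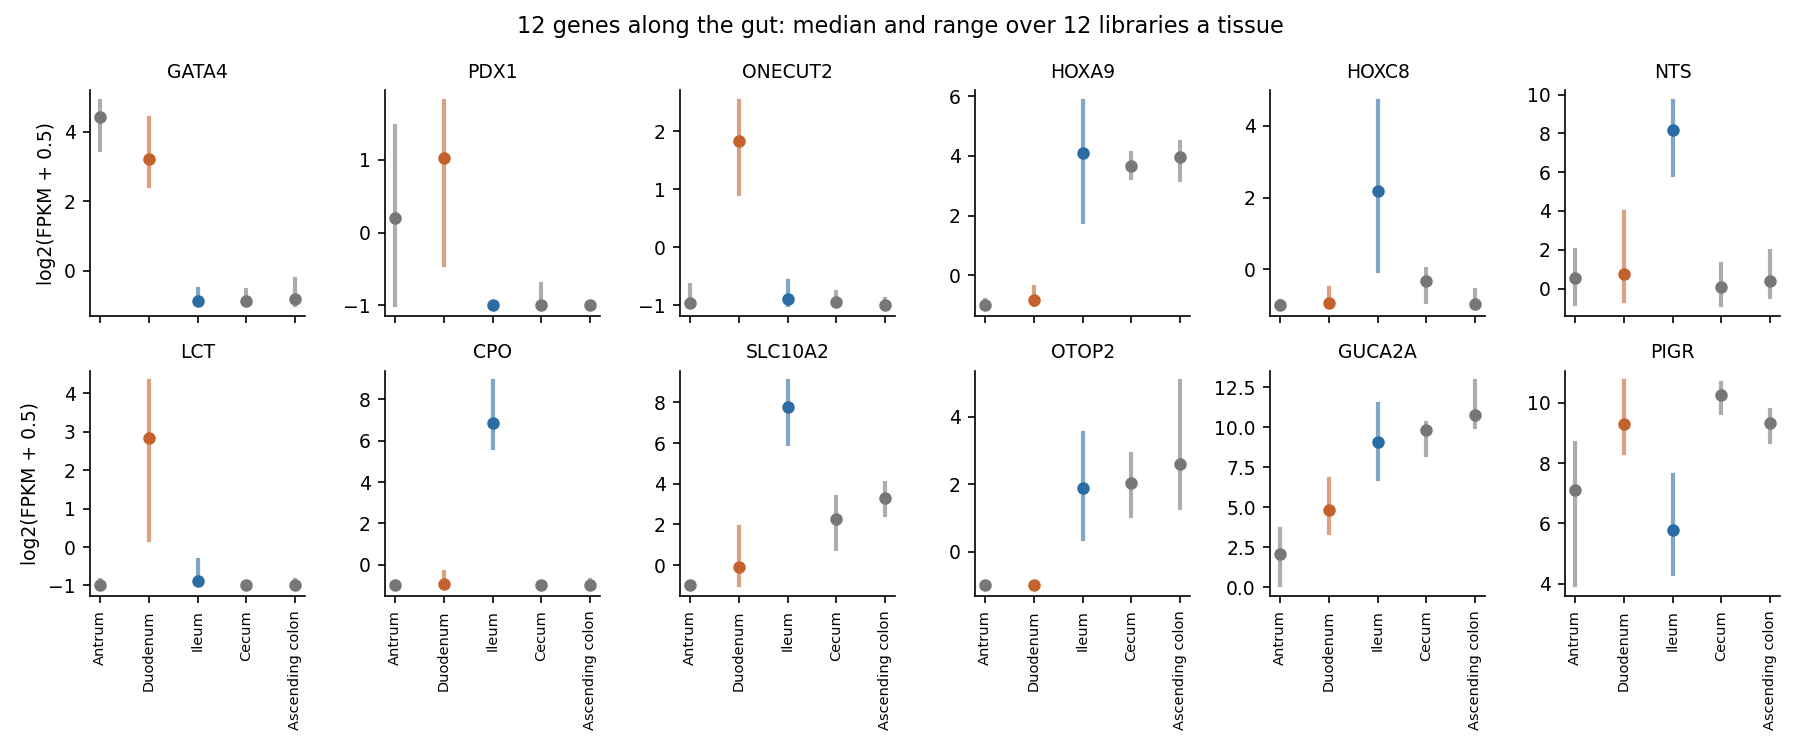
Median (point) and range (bar) over 12 libraries a tissue, as log2(FPKM + 0.5), of 12 genes in antrum, duodenum (orange), ileum (blue), cecum and ascending colon. GATA4 and PDX1 are read in antrum and duodenum, HOXA9 from ileum onward, LCT in duodenum and CPO in ileum, while PIGR is lowest in ileum.

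Brunner gland genes had 3 of 6 members tested (2 with a mean under 1 FPKM in 1 segment), of which 3 were higher in duodenum and none in ileum, with a median log2 difference of 3.53. Besides BPIFB1 these were PGC, pepsinogen C (log2 difference 3.51, SE 0.74, adjusted p = 0.00167), and the water channel AQP5 (log2 difference 3.53, SE 0.65, adjusted p = 3.79e-04). PGC lost its call in the test on recovered reads (adjusted p = 0.0606). The PGC median was 10487 FPKM in antrum against 15.3 FPKM in duodenum. The AQP5 median was also higher in antrum, while that of BPIFB1 was not. Summed over the 4 Brunner gland genes in the table, the median was 10609 FPKM in antrum and 86.1 FPKM in duodenum. These genes are thus not specific to the Brunner glands, and the part of stomach tissue in their calls was not tested. Of the 5 tested stomach markers (2 with a mean under 1 FPKM in 1 segment) 3 were higher in duodenum. These were LIPF and GIF, which encodes intrinsic factor (log2 difference 2.56, SE 0.59, adjusted p = 0.00368). TFF1, a trefoil peptide of the stomach surface, was the other (log2 difference 2.88, SE 0.74, adjusted p = 0.00887). TFF1 lost its call in the test on recovered reads. None of the 6 secretory genes C6orf58, GP2, LIPF, PRR4, BPIFB1 and A4GNT held a steady level in duodenum. All 6 were high at ZT0, ZT4, ZT10, ZT18 and ZT20 and lowest at ZT16 or ZT22. C6orf58 was at 59047 FPKM at ZT0, 27266 at ZT10, 98352 at ZT18 and 66154 at ZT20, against 29.6 and 30.1 FPKM at ZT16 and ZT22. LIPF followed, at 5388 FPKM at ZT0 and 7900 at ZT20 against 1.00 and 1.39 FPKM at ZT16 and ZT22. In antrum the medians of LIPF and A4GNT were 89952 and 127 FPKM, above those of 403 and 15.3 FPKM in duodenum. For C6orf58, GP2, PRR4 and BPIFB1 the duodenum median was the higher.

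GKN1 did not follow them, being under 2 FPKM in 10 of the 12 duodenum libraries, with 49.4 at ZT12 and 3928 at ZT20. S100G was lowest, at 301 FPKM, in the library of ZT10, in which PGC was highest, at 338 FPKM. Smooth muscle markers, summed over 9 genes, also varied, from 122 FPKM at ZT16 to 2205 FPKM at ZT6, and were low at ZT16, ZT20 and ZT22 alike. The part of gland content and depth of the tissue piece in these values was not tested. Without the 3 libraries that stood apart, all 3 tested Brunner gland genes were still called. That fit kept the duodenum libraries of ZT0 and ZT4, where the summed Brunner gland genes were 807 and 869 FPKM.

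**Figure D5:**
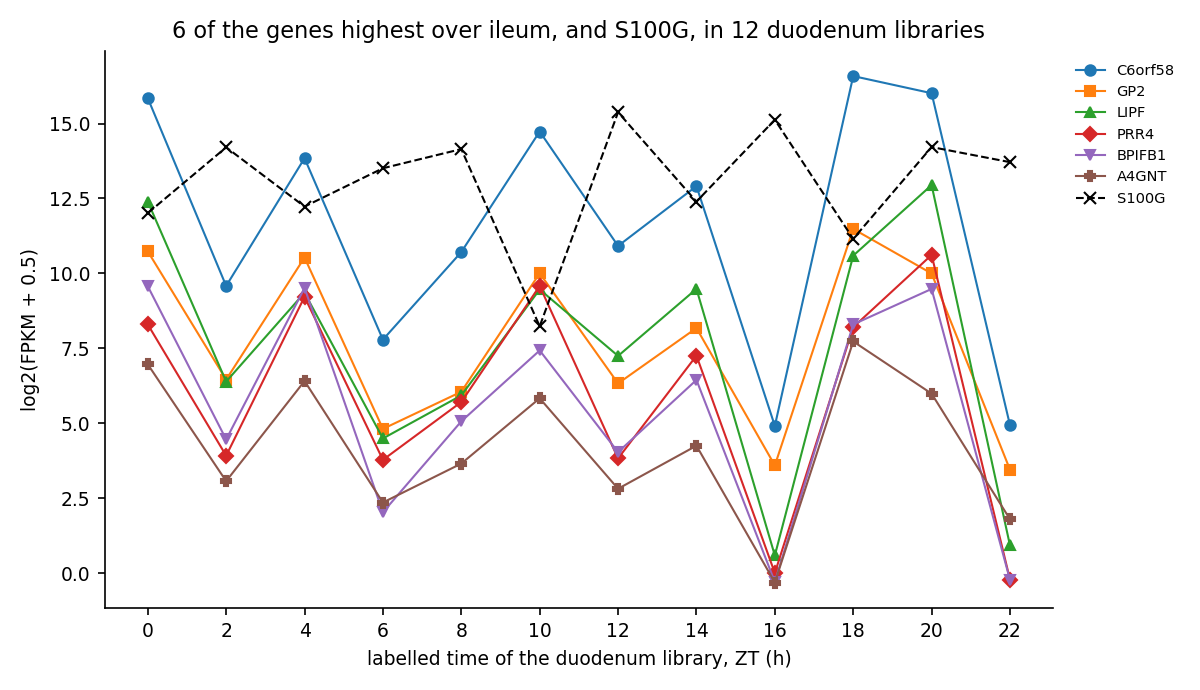
Level, as log2(FPKM + 0.5), of 6 secretory genes (solid lines) and S100G (dashed) in the 12 duodenum libraries, by labelled time (ZT, h), 1 animal a point. The 6 genes go up and down together, with C6orf58 from 29.6 to 98352 FPKM, and S100G has its lowest value at ZT10.

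Paneth cell and antimicrobial genes had 12 of 17 members tested (1 with a mean under 1 FPKM in 1 segment), of which 5 were higher in duodenum and 2 in ileum, with a median log2 difference of 1.31. The counts were 5 and 3 without the ileum libraries of ZT0 and ZT4. REG1A and REG1B, secreted lectins, were among the most abundant transcripts of the duodenum. REG1A ran from 8332 to 28900.0 FPKM in duodenum (median 14985) and from 370.5 to 4943 FPKM in ileum (median 1662), without overlap (log2 difference 3.14, SE 0.36, adjusted p = 4.74e-07). REG1B ran from 2109.7 to 5599 FPKM in duodenum (median 3705) and from 12.2 to 1007 FPKM in ileum (median 142), without overlap (log2 difference 4.52, SE 0.53, adjusted p = 6.60e-07). These 2 are near-identical copies, between which reads may be split. REG3G, an antibacterial lectin, differed by 3.06 and lysozyme, LYZ, by 2.64 (adjusted p = 6.97e-08 and 0.0134). LYZ lost its call in a rank-sum test (adjusted p = 0.0572) and without the 3 libraries that stood apart (adjusted p = 0.0610).

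DEFA6, a Paneth cell defensin, was high in both segments and was not called (log2 difference 1.35, SE 0.60, adjusted p = 0.155). REG4 and DUOXA2, a maturation factor of the oxidase DUOX2, were higher in ileum, at -3.12 and -1.87 (adjusted p = 2.00e-04 and 0.00350).

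PIGR, which carries IgA across the epithelium, ran from 323 to 1681 FPKM in duodenum (median 626) and from 19.6 to 194 FPKM in ileum (median 54.8), without overlap (log2 difference 3.44, SE 0.35, adjusted p = 7.43e-08). Its medians in cecum and ascending colon were 1207 and 645 FPKM, so the ileum was the low segment of the 4. Plasma cell genes were also compared between duodenum and ileum. All 6 tested members of 7 were higher in duodenum, and the median log2 difference was 2.64. JCHAIN, the joining chain of IgA, ran from 964 to 6218 FPKM in duodenum (median 2530.5) and from 57.0 to 1297 FPKM in ileum (median 358) (log2 difference 3.31, SE 0.48, adjusted p = 1.54e-05). Its medians in cecum and ascending colon were 591 and 286 FPKM, the latter below ileum, so JCHAIN did not follow PIGR there. TNFRSF17, XBP1, DERL3, MZB1 and POU2AF1 differed by 2.75, 2.05, 2.72, 2.55 and 2.37, with adjusted p from 1.04e-06 to 0.00151. XBP1 and DERL3 also serve secretion in gland cells. The part of plasma cell number in the PIGR difference was not tested.

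Goblet cell genes had 7 of 11 members tested, of which none were higher in duodenum and 2 in ileum, with a median log2 difference of -1.08. The counts were 0 and 3 without the ileum libraries of ZT0 and ZT4. The 2 genes called over all 24 libraries were CLCA1, a secreted mucus protein (log2 difference -1.48, SE 0.44, adjusted p = 0.0258), and ATOH1, the factor that starts the secretory lineage (log2 difference -1.08, SE 0.33, adjusted p = 0.0311). When centred on epithelial markers both lost their calls (adjusted p = 0.0993 and 0.133). The CLCA1 call also ended without the duodenum library of ZT4 (adjusted p = 0.0501), and the ATOH1 call without any 1 of 5 libraries, duodenum ZT4 and ZT18 and ileum ZT8, ZT10 and ZT14 (adjusted p up to 0.0564). Crypt stem and dividing cell genes gave 1 call in 9 tested members, OLFM4, a marker of crypt base cells, higher in duodenum (log2 difference 2.35, SE 0.79, adjusted p = 0.0489). It did not hold without the ileum libraries of ZT0 and ZT4 (adjusted p = 0.116), or when any 1 of 16 of the 24 libraries was left out (adjusted p up to 0.0870). In that fit the list had no call toward duodenum and 1 toward ileum, LGR5, a stem cell receptor (-0.93, adjusted p = 0.0171). MKI67, TOP2A and the other cell cycle genes were not called.

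Xenobiotic metabolism and export genes had 18 of 27 members tested (1 with a mean under 1 FPKM in 1 segment), of which 1 was higher in duodenum and 4 in ileum, with a median log2 difference of -0.57. The counts were 1 and 5 without the ileum libraries of ZT0 and ZT4. CYP3A4, the main drug-oxidizing cytochrome, was higher in duodenum, from 85.2 to 1151 FPKM in duodenum (median 443) and from 12.2 to 339 FPKM in ileum (median 152) (log2 difference 1.61, SE 0.47, adjusted p = 0.0212), and lost its call with every library set to the same sum (adjusted p = 0.153) and without the 3 libraries that stood apart (adjusted p = 0.0616). Its close relative CYP3A5 was not called, and reads may be split between them. Toward ileum lay the efflux pumps ABCG2 (log2 difference -2.52, SE 0.38, adjusted p = 3.06e-05) and ABCB1 (log2 difference -1.43, SE 0.32, adjusted p = 0.00295), and the fatty acid hydroxylase CYP4F2 (log2 difference -2.57, SE 0.47, adjusted p = 3.42e-04). The sulfotransferase SULT2A1 was at the threshold (log2 difference -1.69, SE 0.57, adjusted p = 0.0490), and its call ended when any 1 of 16 of the 24 libraries was left out (adjusted p up to 0.0872) or with the labelled time as a block (adjusted p = 0.0576).

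Time of day was examined in each segment with a 24 h cosine and sine term, tested by limma's moderated F. In duodenum 654 of 11613 genes (5.63%) had a 24 h rhythm, and in ileum 3327 of 12113 (27.5%). Both counts were unstable. With a filter of 5 FPKM no duodenum gene passed (1934 of 7338 had an unadjusted p under 0.05), and without the ileum libraries of ZT0 and ZT4 5343 ileum genes passed. Content differed between the libraries of both segments. The summed smooth muscle markers were 11401 FPKM at ZT6 and 41.1 FPKM at ZT20 in ileum. In duodenum they were 2205 FPKM at ZT6 and 122 FPKM at ZT16. The part of tissue content in either count was not tested.

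Core clock genes had a 24 h rhythm in both segments, 10 of 17 in duodenum and 11 of 17 in ileum, 8 of them in both. None of the duodenum calls remained with the filter of 5 FPKM, where the smallest adjusted p of the moderated F was 0.0684. ARNTL, the activator of the clock, peaked at a labelled ZT of 15.41 in duodenum and ZT 14.01 in ileum, with amplitudes of 1.03 ± 0.13 and 0.90 ± 0.14 (log2, SE). The repressor PER1 peaked at ZT 4.30 and ZT 3.59, and the output factor DBP at ZT 3.52 and ZT 3.56. NR1D1, which represses ARNTL, peaked at ZT 1.40 and ZT 1.87.

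The difference between the segments' rhythms was tested by an interaction term and reached an adjusted p under 0.05 in 0 of 12102 genes (0%) by limma, with 791 at an unadjusted p under 0.05. With the duodenum times set 2 h earlier the count was also 0, with 2125 at an unadjusted p under 0.05. Leaving out the same 2 ileum libraries it was 3, OTOP2 (adjusted p = 0.0346), NAT16 (adjusted p = 0.0455) and a row without a symbol. The mean level of the 16 tested clock genes gave no call over the 24 libraries, the smallest adjusted p being 0.0555 for CRY1. CRY1 was called higher in ileum with the labelled time as a block (adjusted p = 0.00655) and without the ileum libraries of ZT0 and ZT4 (-1.02, adjusted p = 0.0130).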

How the data were processed

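RNA from 12 duodenum and 12 ileum samples was sequenced as poly(A) libraries, per the labels. The authors deposited FPKM values, fragments scaled by a factor for each library and to transcript length, for 29202 rows in tables of the whole atlas. STAR, featureCounts and DESeq2 were used, per the submitters' processing notes. Their settings and versions, and the build of the genome, are not given in any source used here. Symbols are those of the deposited table, where 20432 rows have one of their own. 683 sample columns of other tissues were not used, beside those of the antrum, cecum, ascending colon, pancreas and prefrontal cortex.

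Values were taken as log2(FPKM + 0.5). Genes with a mean of at least 1 FPKM over the 24 libraries were tested with limma 3.58.1 (R 4.3.3; moderated test with a variance trend), unpaired, with Benjamini-Hochberg adjustment over all tested genes, and called at an adjusted p under 0.05. A 2-fold call also needs a log2 difference of at least 1 in size. The fit was tested on simulated data. Rhythm was a 24 h cosine and sine. Reads per gene were recovered from the steps of the FPKM values, and 22822 of 22823 rows gave whole reads within 0.01. Named genes are S100G, GIP, members of gene lists, and the 12 largest 2-fold calls per direction among rows with their own symbol, with 10 FPKM or more in the higher segment that also passed without the ileum libraries of ZT0 and ZT4. Others are said to be chosen later, and 2 list members are not reported here. The members and lists were chosen with earlier results of these data known.

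Per the labels 1 animal was taken at each time, so equal times pair the segments. Deviations of same-time libraries correlated with a mean r of 0.22 (-0.51 to 0.50, above 0.1 in 10 of 12 pairs), and those of each duodenum library with the ileum of the preceding time with a mean r of 0.33 (-0.18 to 0.64, 10 of 12). Both blocks were run as alternatives. P-values measure the spread between animals, which includes time of day.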

Additional observations from a re-analysis of the deposited data

How the results depend on the processing

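Counts of 2-fold calls were 489 higher in duodenum and 345 higher in ileum, with 1596 calls of any size. With a filter of 5 FPKM 221 were higher in ileum. With every library set to the same sum 532 were higher in ileum and calls of any size numbered 1013. Scaled to epithelial markers the 3 counts were 1946, 172 and 2946. Leaving out each library in turn gave 427 to 517, 307 to 368 and 1284 to 1659, the first and last lowest without the duodenum library of ZT4. With the labelled time as a replicate block the counts were 510, 360 and 1806, and with the pairing shifted by 2 h 557, 374 and 2323. Beside SULT2A1 and CRY1, given above, the labelled block changed no other call among the 117 genes followed. The shifted block added RBP2 (adjusted p = 0.0186), DEFA6 (adjusted p = 0.0131) and CRY1 (adjusted p = 0.0022). The duodenum rhythm count was 0 with a filter of 5 FPKM, the ileum count 5343 without the libraries of ZT0 and ZT4, and the difference in rhythm 3 without them. The cause was not tested.

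Of 107 called genes among those followed, 90 kept their call and direction under every alternative in which they were tested, 17 lost it under some, and 0 reversed. There were 40 alternatives, and 16 of the followed genes had 39, since they were not tested with the filter of 5 FPKM. SLC5A1 and SLC15A1, not called, changed sign: SLC5A1 to 0.39 and SLC15A1 to 0.32 scaled to epithelial markers, and SLC5A1 to 0.0078 in the rank-sum test. Leaving out each library in turn gave -0.26 (without ileum ZT6) to 0.032 for SLC5A1, positive also at 0.0066 and 0.017, and -0.38 (without duodenum ZT12) to 0.0011 for SLC15A1. With 1 animal per time and 12 libraries per segment, genes under 1 FPKM were not tested and differences in rhythm have little precision.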

Other observations

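Among cell types not described above, B cell and follicle genes had 12 of 16 members tested (1 with a mean under 1 FPKM in 1 segment). Of these, 3 were higher in duodenum and none in ileum, with a median log2 difference of 1.30. These were GP2, CD79A (log2 difference 2.05, SE 0.57, adjusted p = 0.0158) and CD22. GP2 is also among the secretory genes described above, with a median of 188 FPKM in duodenum and 33263 FPKM in pancreas. Its call therefore cannot be read as B cell content. CD22 was not called without the ileum libraries of ZT0 and ZT4. In that fit 3 members were higher in duodenum, BCL6 now among them, and 1 was higher in ileum, the chemokine CCL20 (-1.49, adjusted p = 0.0301). The spread within ileum was wide: the follicle receptor CR2 ran from 7.47 to 97.1 FPKM in duodenum (median 48.8) and from 0.474 to 119 FPKM in ileum (median 33.8). T cell genes had 1 call in 12 tested members (1 with a mean under 1 FPKM in 1 segment), LCK, which also ended without these 2 libraries. Smooth muscle genes had no call in 9. Of 8 epithelial genes, EPCAM and KRT20 were higher in ileum, at -0.89 and -1.35 (adjusted p = 0.0337 and 0.0125; the EPCAM call ended when any 1 of 10 libraries was left out), and of 5 tested adipocyte genes LPL was (log2 difference -1.40, SE 0.28, adjusted p = 8.75e-04).

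A few genes that every cell uses differed between the segments as much as segment markers did, and were looked at after their values were seen. RPS13, a protein of the small ribosomal subunit, ran from 26.5 to 89.5 FPKM in duodenum (median 45.7) and from 0 to 4.87 FPKM in ileum (median 0.274), and both ileum values above 1 FPKM, 4.87 and 4.36, came from the libraries of ZT0 and ZT4. In antrum, cecum, ascending colon, pancreas and prefrontal cortex RPS13 ran from 3.76 to 103 FPKM. RPLP1 and RPL35A were also lower in ileum, with ileum medians of 10.4 and 22.7 FPKM against 156 and 286 FPKM in duodenum. Of 30 tested ribosomal protein genes (4 with a mean under 1 FPKM in 1 segment), 10 were higher in duodenum and 1 in ileum. Without the ileum libraries of ZT0 and ZT4 the counts were 8 and 1. RPS13, RPLP1 and RPL35A, which led to the list, are inside these counts, so they are a description. Over all tested genes 8.13% were higher in duodenum and 5.06% in ileum. NDUFA1, a subunit of respiratory complex I, went the other way, from 3.33 to 11.7 FPKM in duodenum (median 6.16) and from 55.6 to 249.6 FPKM in ileum (median 176), while no library of the other 5 tissues exceeded 18.9 FPKM. Of 37 tested respiratory chain genes, NDUFA1 among them, 1 was higher in duodenum and 3 in ileum. Without the same 2 ileum libraries the counts were 2 and 4. Over all 12102 tested genes 13.2% were called in either direction, so the respiratory chain genes as a list did not stand out. Many ribosomal protein genes have near-identical copies among which reads can be split. The cause was not tested, and how reads of the ileum libraries were handled is not given in the sources used here.

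The row with the largest difference of all has no symbol in the table. ENSPANG00000014428 had a median of 21475 FPKM in ileum, from 2819 to 54661 FPKM, against 0 to 8.61 FPKM in duodenum. ENSPANG00000009648 also lay beyond CPO, from 63.6 to 1591 FPKM in ileum against 0.0665 to 69.7 FPKM in duodenum. On the duodenum side ENSPANG00000008679 ran from 3.58 to 8132 FPKM, against 10.6 FPKM at most in ileum. ENSPANG00000017005 ran from 115 to 1515 FPKM in duodenum against 2.26 to 60.7 FPKM in ileum.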
